A study of Homo sapiens with 12 samples.

Results

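The mitosis and spindle genes described here are 50 genes of chromosome segregation, taken by their symbols. All 50 were found, each as 1 of the 48114 genes listed for 2 cell lines of pancreatic ductal adenocarcinoma (PDAC). PANC-1, which the study uses as a basal-like line, received a control siRNA (siCtrl), siRNAs against QKI (siQKI) or siRNAs against RBFOX2 (siRBFOX2), at 40 nM for the silenced genes, and was collected after 48 h. HPAF-II, which the study uses as a classical line, received siCtrl only. Each of the 4 groups had 3 libraries, labelled as biological replicates. Every group therefore rests on 1 established cell line at 1 time after a transient transfection, and the control and QKI siRNAs were pools of several duplexes. QKI and RBFOX2 are RNA-binding proteins that regulate splicing, and the comparison asks what their loss did to the transcriptome of the basal-like line.

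Cells enter mitosis when cyclin B and CDK1 are activated by CDC25 phosphatases, and the kinases PLK1 and Aurora A build the spindle. Kinetochores assemble on centromeric CENPA nucleosomes and bind microtubules through the NDC80 complex, while Aurora B, held in the chromosomal passenger complex, corrects wrong attachments. The spindle assembly checkpoint holds back the anaphase-promoting complex (APC/C) until all chromosomes are attached, and CDC20 then directs it against securin and cyclin B. Kinesins and crosslinkers such as PRC1 form the central spindle, from which ECT2 starts cytokinesis. Many of these genes are transcribed together in G2 and M phase by FOXM1 and the MuvB complex, which binds cell cycle genes homology region (CHR) elements, beside NF-Y on CCAAT boxes.

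Values are gene counts divided by a size factor per library, called normalized counts here, and a fold change is on the log2(normalized count + 1) scale, given as estimate ± standard error (SE). Before that division the counts summed to 292248837 to 376192091 per PANC-1 library and 226697015 to 309720537 per HPAF-II library. A unit of the tables is not 1 read, since most low values are multiples of 3 units, so precision was taken from the spread of the replicates. The silencing was visible in every library. QKI was at 25909, 24539 and 26150 with siCtrl, 4630, 5453 and 5020 with siQKI and 26742, 28333 and 28973 with siRBFOX2, and RBFOX2 was at 15355, 15508 and 15424 with siCtrl, 12629, 12778 and 12520 with siQKI and 2403, 2171 and 1712 with siRBFOX2. QKI fell by 2.34 ± 0.06 with siQKI (adjusted p = 9.2e-13) and RBFOX2 fell by 2.89 ± 0.09 with siRBFOX2 (adjusted p = 4.7e-11). RBFOX2 also fell by 0.29 ± 0.09 with siQKI (adjusted p = 0.021), a call that was lost when the libraries were rescaled, while QKI changed by 0.13 ± 0.06 with siRBFOX2 (adjusted p = 0.11). The epithelial keratins KRT8, KRT18 and KRT19 were at 130474 normalized counts or more in every library of both lines, whereas CDH1 was at 995, 997 and 968 with siCtrl, 3026, 2275 and 2528 with siQKI and 1438, 1535 and 1322 with siRBFOX2 in PANC-1 and at 57831, 63228 and 45907 in HPAF-II. Among 13 leukocyte, endothelial and fibroblast markers, 9 had a mean under 10 in PANC-1 and the T-cell marker CD3E and the fibroblast marker DCN were listed at 0 in all of its libraries. CD68, which carcinoma lines also express, made up nearly all of the leukocyte sum of 38384 to 57206. CD68 fell by 0.49 ± 0.05 with siQKI and 0.33 ± 0.05 with siRBFOX2, and CDH1 rose by 1.39 ± 0.11 with siQKI and 0.53 ± 0.11 with siRBFOX2. The keratins went the other way with siRBFOX2, where KRT8 fell by 0.23 ± 0.04, KRT18 by 0.35 ± 0.05 and KRT19 by 0.23 ± 0.04, and KRT18 fell by 0.20 ± 0.05 with siQKI. The 5 epithelial markers summed to 862520 to 918691 with siCtrl, 838134 to 903354 with siQKI and 711363 to 768853 with siRBFOX2, and the part of these markers in the results was not tested. HPAF-II replicate 3 stood apart from the other two HPAF-II libraries, so values for HPAF-II are given with and without it.

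The promoters of these genes are shown because the members share letters that the choice did not use. RefSeq promoter windows (GRCh38.p14, 250 bases before to 50 after a gene's start) were found for 42 of the 50 members. A CHR element, searched as TTTGAA or TTCGAA on both strands, was in a window of 33 of the 42 members (78.6%) against 19.5% of all 27305 genes with a window. A CCAAT box, on both strands, was in a window of 35 members (83.3%) against 39.7% of all genes, and both stood in 1 window for 28 members (66.7%) against 7.85%. The 2 motifs can overlap, as where TTTGAA runs into ATTGG in CDCA8. Some genes have several windows, and with 1 window a gene the CHR shares were 76.2% and 16.8%. The windows of 8 members named below for their changes follow, 5′ to 3′ on the gene's strand, with CHR and CCAAT matches in capitals: SPC24 (chr19:11155733-11156032, minus strand), CDCA8 (chr1:37692266-37692565, plus), CENPA (chr2:26785806-26786105, plus), AURKB (chr17:8210176-8210475, minus, 1 of 2 windows), NUF2 (chr1:163321704-163322003, plus), ECT2 (chr3:172750476-172750775, plus, 1 of 2 windows), MAD2L1 (chr4:120066799-120067098, minus) and KIF11 (chr10:92592880-92593179, plus).
SPC24: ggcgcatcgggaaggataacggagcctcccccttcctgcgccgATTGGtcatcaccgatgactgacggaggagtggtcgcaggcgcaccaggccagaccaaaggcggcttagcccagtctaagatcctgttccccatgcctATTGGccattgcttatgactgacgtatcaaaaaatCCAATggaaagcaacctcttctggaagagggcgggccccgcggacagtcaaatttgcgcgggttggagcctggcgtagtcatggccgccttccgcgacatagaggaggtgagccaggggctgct
CDCA8: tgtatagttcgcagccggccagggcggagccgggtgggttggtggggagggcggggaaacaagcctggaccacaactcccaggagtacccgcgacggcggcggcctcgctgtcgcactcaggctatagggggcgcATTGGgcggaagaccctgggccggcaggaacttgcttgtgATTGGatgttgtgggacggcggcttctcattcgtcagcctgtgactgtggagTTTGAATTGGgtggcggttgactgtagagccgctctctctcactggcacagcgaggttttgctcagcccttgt
CENPA: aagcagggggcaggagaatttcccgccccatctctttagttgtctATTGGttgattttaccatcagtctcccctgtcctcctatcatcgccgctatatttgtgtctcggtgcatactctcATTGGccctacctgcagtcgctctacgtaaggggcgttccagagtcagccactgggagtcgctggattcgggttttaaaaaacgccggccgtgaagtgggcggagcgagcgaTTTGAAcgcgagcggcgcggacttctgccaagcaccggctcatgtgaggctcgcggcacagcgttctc
AURKB: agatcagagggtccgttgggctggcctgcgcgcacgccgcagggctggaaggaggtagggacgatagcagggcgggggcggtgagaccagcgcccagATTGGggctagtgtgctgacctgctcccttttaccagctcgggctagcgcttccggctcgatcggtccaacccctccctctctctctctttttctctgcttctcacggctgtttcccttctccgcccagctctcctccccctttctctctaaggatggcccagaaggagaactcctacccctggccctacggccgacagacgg
NUF2: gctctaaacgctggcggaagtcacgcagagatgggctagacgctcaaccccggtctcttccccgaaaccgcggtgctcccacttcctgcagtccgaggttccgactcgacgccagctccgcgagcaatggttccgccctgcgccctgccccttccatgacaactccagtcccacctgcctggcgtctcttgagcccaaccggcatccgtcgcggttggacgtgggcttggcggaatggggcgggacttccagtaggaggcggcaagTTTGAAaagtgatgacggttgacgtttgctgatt
ECT2: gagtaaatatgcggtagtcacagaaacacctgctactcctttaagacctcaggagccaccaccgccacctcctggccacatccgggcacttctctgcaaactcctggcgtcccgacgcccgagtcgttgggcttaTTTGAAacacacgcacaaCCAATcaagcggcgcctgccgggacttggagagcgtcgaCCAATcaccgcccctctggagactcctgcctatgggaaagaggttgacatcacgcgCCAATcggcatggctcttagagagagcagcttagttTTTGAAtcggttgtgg
MAD2L1: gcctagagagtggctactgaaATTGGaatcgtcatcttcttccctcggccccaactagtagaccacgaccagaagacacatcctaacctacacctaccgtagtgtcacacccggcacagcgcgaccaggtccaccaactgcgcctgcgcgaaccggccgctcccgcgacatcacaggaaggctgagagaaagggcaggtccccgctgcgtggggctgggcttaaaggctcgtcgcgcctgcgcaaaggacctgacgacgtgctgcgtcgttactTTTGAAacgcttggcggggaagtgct
KIF11: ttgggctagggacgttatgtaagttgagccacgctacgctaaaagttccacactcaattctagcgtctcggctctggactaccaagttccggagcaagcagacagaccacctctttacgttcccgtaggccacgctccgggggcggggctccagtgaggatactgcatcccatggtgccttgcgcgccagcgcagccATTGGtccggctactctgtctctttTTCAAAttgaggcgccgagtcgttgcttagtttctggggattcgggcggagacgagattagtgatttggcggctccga
The SPC24 and AURKB windows hold CCAAT boxes without these CHR letters, the NUF2 window holds a CHR without CCAAT, and the other 5 hold both. A match is a description of the letters and not a measured binding site.

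Many mitosis and spindle genes of PANC-1 were lower after silencing of either RNA-binding protein, by small amounts. With siQKI, 30 of the 50 members fell, 1 rose and 19 did not pass the test (limma, Benjamini-Hochberg adjusted p under 0.05), where 18.1% of the 22544 genes tested fell and 14.9% rose. With siRBFOX2, 45 members fell, none rose and 5 did not pass, where 14.5% of all genes fell and 12% rose. All members had high values, with means of 4614 to 158055 normalized counts over the PANC-1 libraries. Among the 7543 genes with a mean at least that of the lowest member, called abundant genes here, 40.4% fell and 18.2% rose with siQKI, and 34.3% fell and 15.1% rose with siRBFOX2. The share of members that fell was therefore above that of abundant genes too, by a wider margin with siRBFOX2. Abundant genes start at the lowest member, most members lay well above it, and genes matched more closely in level were not compared. The share that fell was larger among abundant genes than among all genes, so a closer match could narrow these margins. The median log2 fold change of the members was -0.17 with siQKI and -0.24 with siRBFOX2, beside 0.03 and 0.01 over all genes and -0.09 and -0.07 over the abundant genes.

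The changes were small in each gene. Of the members, 1 fell by at least 1.5-fold with siQKI (SPC24; 3.16% of all genes did) and 1 with siRBFOX2 (NUF2; 1.62% of all genes). The median offset of the 50 members from the siCtrl mean was -0.22, -0.15 and -0.17 in the siQKI libraries and -0.25, -0.25 and -0.20 in the siRBFOX2 libraries, against -0.02, -0.01 and 0.03 in the siCtrl libraries themselves. All 6 knockdown libraries thus lay below all 3 control libraries. Both knockdowns were set against the same siCtrl libraries, so their falls are not independent of each other. Without siCtrl replicate 3, 25 members fell with siQKI, where 3440 of 22559 genes fell, and 37 with siRBFOX2, where 2657 fell. Summed over the members, 2366916 to 2431967 normalized counts were found with siCtrl, 2059529 to 2121355 with siQKI and 2003780 to 2081504 with siRBFOX2. The sums did not overlap between siCtrl and either knockdown. Totals over all genes were also lower with either knockdown, without overlap. They were 3.388e+08 to 3.482e+08 with siCtrl, 3.281e+08 to 3.333e+08 with siQKI and 3.218e+08 to 3.365e+08 with siRBFOX2. Per 1000000 normalized counts, the members took 6836 to 7044 with siCtrl, 6180 to 6466 with siQKI and 6009 to 6226 with siRBFOX2. These shares did not overlap either, so the members fell by more than the totals. In these bulk libraries, fewer cells in G2 and M phase and less RNA of these genes per cell cannot be told apart. DNA replication genes, listed with earlier results of these data known, had medians of -0.18 with siQKI and -0.31 with siRBFOX2. The part of cell cycle phase was not tested.

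**Figure D1:**
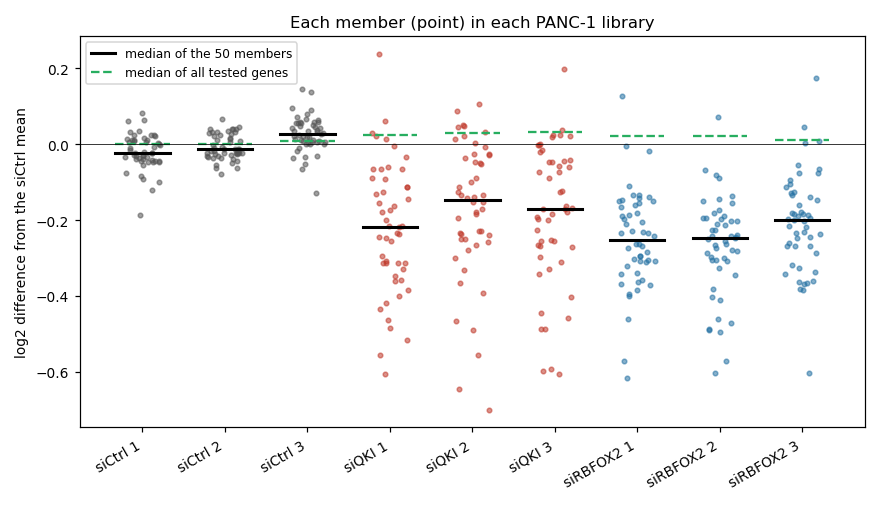
Log2 difference of each of the 50 members (points) from its siCtrl mean in the 9 PANC-1 libraries, with the median of the members (black bar) and of all 22544 tested genes (green dashed bar). The member medians of the knockdown libraries lie between -0.25 and -0.15, below those of the control libraries (-0.02 to 0.03), and the medians of all genes stay near 0. Abundant genes, not drawn, had median log2 fold changes of -0.09 (siQKI) and -0.07 (siRBFOX2).

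Rescaling the libraries by their upper quartile, which puts the median of all genes at 0.09 (siQKI) and 0.04 (siRBFOX2), left 23 members lower and 2 higher (ESPL1 and BUB1) with siQKI and 41 lower with siRBFOX2. Over all genes the same rescaling turned 3362 higher and 4070 lower calls with siQKI into 4225 and 3057, and 2713 and 3272 with siRBFOX2 into 3128 and 2715. Apart from stricter thresholds, calls were kept under all alternatives tried by 22 of the 31 members called with siQKI and by 32 of the 45 called with siRBFOX2. The 9 that lost a siQKI call somewhere were CCNA2, CDC25C, ESPL1, HMMR, ASPM, KIF20A, KIF20B, KIF15 and TOP2A. The 13 that lost a siRBFOX2 call were CCNB1, CDC25C, BUB1, BUB1B, CDC20, PTTG1, NDC80, CENPA, CENPE, TPX2, KIF14, RACGAP1 and TOP2A.

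**Figure D2:**
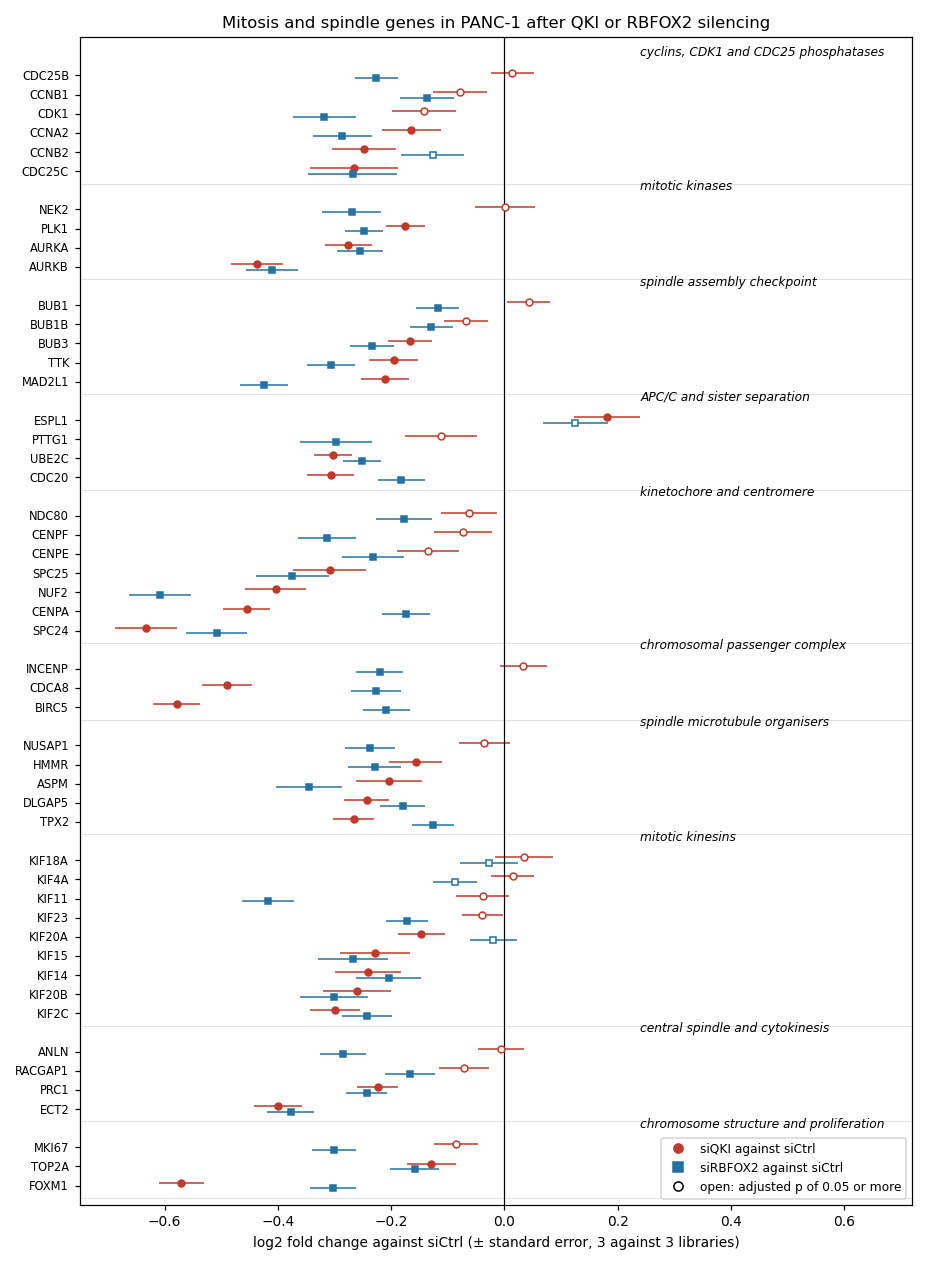
Log2 fold change against siCtrl (± SE, 3 against 3 libraries) of the 50 members by role, for siQKI (red circles) and siRBFOX2 (blue squares), with open symbols where the adjusted p was 0.05 or more. Most symbols lie left of 0, siQKI spreads from -0.63 (SPC24) to 0.18 (ESPL1), and siRBFOX2 from -0.61 (NUF2) to 0.13 (ESPL1).

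Among the 6 cyclin, CDK1 and CDC25 genes, 3 fell with siQKI and 5 with siRBFOX2. CCNB1, the mitotic cyclin B1, was at 72086, 79101 and 79635 with siCtrl, 71083, 74410 and 72998 with siQKI and 71240, 65725 and 72986 with siRBFOX2. The knockdown and control libraries of CCNB1 overlapped, with log2 fold changes of -0.08 ± 0.05 for siQKI (adjusted p = 0.24) and -0.14 ± 0.05 for siRBFOX2 (adjusted p = 0.046). CCNA2, the cyclin of S and G2 phase, was at 18818, 18694 and 19292 with siCtrl, 16738, 17263 and 16669 with siQKI and 15787, 14239 and 16630 with siRBFOX2. It fell by 0.16 ± 0.05 with siQKI (adjusted p = 0.024) and by 0.29 ± 0.05 with siRBFOX2 (adjusted p = 0.00079), without overlap of the libraries. CCNA2 lies over EXOSC9 (mean 8297), and 13 members in all lie over another listed gene. Cyclin B2 (CCNB2) fell by 0.25 ± 0.06 with siQKI (adjusted p = 0.0028) and gave -0.13 ± 0.06 with siRBFOX2 (adjusted p = 0.12).

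CDK1, the kinase that drives entry into mitosis, was at 18180, 19304 and 18834 with siCtrl, 16160, 17657 and 17231 with siQKI and 14368, 14393 and 16507 with siRBFOX2. All knockdown libraries were below all controls, but only the fall by 0.32 ± 0.06 with siRBFOX2 passed the test (adjusted p = 0.00066), with -0.14 ± 0.06 for siQKI (adjusted p = 0.068). CDC25B, which activates CDK1 at the centrosome, was at 68738, 71303 and 70692 with siCtrl, 71323, 71859 and 69561 with siQKI and 62839, 59073 and 58343 with siRBFOX2. It fell by 0.23 ± 0.04 with siRBFOX2 (adjusted p = 0.00042), whereas siQKI and siCtrl libraries overlapped. CDC25C, the other CDK1-activating phosphatase, had the lowest mean of the members over all PANC-1 libraries (ESPL1 was lower with siCtrl alone), at 4561, 5338 and 5735 with siCtrl, 4172, 4428 and 4353 with siQKI and 4226, 4136 and 4572 with siRBFOX2. It fell by 0.27 ± 0.08 (adjusted p = 0.016) and 0.27 ± 0.08 (adjusted p = 0.019), with the limit that it lies over FAM53C, whose mean of 21664 exceeds its own 4614, and that strand is not stated for the counting.

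Of the 4 mitotic kinases, 3 fell with siQKI and all 4 with siRBFOX2. AURKB, the Aurora kinase of the passenger complex (chr17:8204732-8210582, hg38), was at 22523, 21938 and 22394 with siCtrl, 16499, 16985 and 15907 with siQKI and 17241, 15800 and 17313 with siRBFOX2. It fell by 0.44 ± 0.05 with siQKI (adjusted p = 3.3e-06) and 0.41 ± 0.05 with siRBFOX2 (adjusted p = 1.2e-05), to 73.9% and 75.3% of the siCtrl mean. AURKA, the Aurora kinase of the spindle poles, was at 33836, 34171 and 36036 with siCtrl, 28016, 29152 and 28760 with siQKI and 28875, 28170 and 30119 with siRBFOX2. Both knockdowns lay below all controls, with falls of 0.28 ± 0.04 (adjusted p = 9.3e-05) and 0.26 ± 0.04 (adjusted p = 0.0003). PLK1, which acts from mitotic entry to cytokinesis, was at 58272, 58008 and 59353 with siCtrl, 52618, 51723 and 51241 with siQKI and 49540, 48655 and 49739 with siRBFOX2, with falls of 0.17 ± 0.03 (adjusted p = 0.00085) and 0.25 ± 0.03 (adjusted p = 7e-05). NEK2, which separates the centrosomes, was at 14579, 14670 and 15523 with siCtrl, 14248, 15454 and 15105 with siQKI and 11561, 13029 and 12570 with siRBFOX2. It fell only in the siRBFOX2 comparison, by 0.27 ± 0.05 (adjusted p = 0.0014), with 0.00 ± 0.05 for siQKI (adjusted p = 0.99).

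Of the 5 spindle assembly checkpoint genes, 3 fell with siQKI (BUB3, MAD2L1 and TTK) and all 5 with siRBFOX2. MAD2L1, the inhibitor of CDC20 made at unattached kinetochores (chr4:120055623-120066848), was at 80832, 85865 and 83839 with siCtrl, 71033, 74162 and 71324 with siQKI and 60618, 60172 and 65900 with siRBFOX2. It fell by 0.21 ± 0.04 with siQKI (adjusted p = 0.0011) and by 0.43 ± 0.04 with siRBFOX2 (adjusted p = 3.4e-06), and the 3 groups did not overlap. BUB1, the kinase that recruits checkpoint proteins, was at 62171, 64633 and 62773 with siCtrl, 63847, 67172 and 64297 with siQKI and 57586, 56786 and 60390 with siRBFOX2, and fell by 0.12 ± 0.04 with siRBFOX2 (adjusted p = 0.032) with 0.04 ± 0.04 for siQKI (adjusted p = 0.44). BUB1B (BUBR1), part of the APC/C inhibitor, was at 35588, 35485 and 37172 with siCtrl, 33384, 35347 and 34577 with siQKI and 32870, 32538 and 33569 with siRBFOX2. Its siRBFOX2 fall of 0.13 ± 0.04 (adjusted p = 0.021) and its siQKI value of -0.07 ± 0.04 (adjusted p = 0.21) were among the smaller differences. BUB3 and the kinase TTK fell by 0.17 ± 0.04 and 0.20 ± 0.04 with siQKI and by 0.23 ± 0.04 and 0.31 ± 0.04 with siRBFOX2.

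Among the 4 genes of the APC/C and sister separation, 2 fell and 1 rose with siQKI, and 3 fell with siRBFOX2. CDC20, the APC/C activator that the checkpoint restrains, was at 88553, 92013 and 93548 with siCtrl, 73511, 75959 and 72104 with siQKI and 82375, 76102 and 83267 with siRBFOX2. It fell by 0.31 ± 0.04 (adjusted p = 3.9e-05) and 0.18 ± 0.04 (adjusted p = 0.0043), and the siQKI libraries were the lowest. UBE2C, the ubiquitin-conjugating enzyme of the APC/C, was at 137602, 134730 and 139149 with siCtrl, 110378, 111489 and 111552 with siQKI and 116827, 112367 and 116297 with siRBFOX2, with falls of 0.30 ± 0.03 (adjusted p = 5.2e-06) and 0.25 ± 0.03 (adjusted p = 5.5e-05). Per kilobase of transcript and per 1000000 normalized counts, UBE2C was the most abundant member in PANC-1 siCtrl, at 436, ahead of BIRC5 at 162, and ESPL1 was the least, at 2.03. PTTG1 (securin), the inhibitor of separase, was at 60928, 60106 and 57294 with siCtrl, 58069, 54186 and 52909 with siQKI and 48486, 43180 and 53925 with siRBFOX2. It fell by 0.30 ± 0.06 with siRBFOX2 (adjusted p = 0.0026), and siQKI gave -0.11 ± 0.06 with overlapping libraries (adjusted p = 0.21). ESPL1, separase itself, was the member that rose. It was at 4669, 4561 and 4664 with siCtrl, 5462, 4984 and 5318 with siQKI and 5059, 4869 and 5232 with siRBFOX2, a change of 0.18 ± 0.06 with siQKI (adjusted p = 0.025) and 0.13 ± 0.06 with siRBFOX2 (adjusted p = 0.13), and the siQKI call was lost on leaving out any of 4 libraries (siCtrl 2 or 3, siQKI 1 or 3).

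The 7 kinetochore and centromere genes included the member that fell most with siQKI (SPC24) and the one that fell most with siRBFOX2 (NUF2), with 4 lower with siQKI and all 7 lower with siRBFOX2. SPC24, a subunit of the NDC80 complex (chr19:11145493-11155808), was at 20389, 20591 and 21399 with siCtrl, 13655, 12799 and 13796 with siQKI and 13975, 13997 and 15954 with siRBFOX2. Its fall of 0.63 ± 0.05 with siQKI (adjusted p = 4.6e-07), to 64.5% of the siCtrl mean, was the largest of any member, and it fell by 0.51 ± 0.05 with siRBFOX2 (adjusted p = 7.4e-06). NUF2, another subunit of this complex (chr1:163321954-163355759), was at 12076, 13416 and 13971 with siCtrl, 9940, 10185 and 9647 with siQKI and 8566, 8639 and 8635 with siRBFOX2. It fell by 0.40 ± 0.05 with siQKI (adjusted p = 3.6e-05) and by 0.61 ± 0.05 with siRBFOX2 (adjusted p = 1.3e-06), the latter to 65.5%. SPC25, the partner of SPC24, was at 15151, 14772 and 13085 with siCtrl, 11142, 12154 and 11381 with siQKI and 11566, 10188 and 11405 with siRBFOX2, with falls of 0.31 ± 0.06 (adjusted p = 0.0015) and 0.37 ± 0.06 (adjusted p = 0.00047). NDC80, the fourth subunit, was at 19552, 18923 and 19242 with siCtrl, 17412, 19286 and 18611 with siQKI and 17167, 16132 and 17778 with siRBFOX2. The NDC80 gene changed less than the other three, by -0.06 ± 0.05 (adjusted p = 0.38) and -0.18 ± 0.05 (adjusted p = 0.014), a comparison between genes that was not tested.

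CENPA, the histone that marks centromeres (chr2:26786054-26801064), was at 31897, 33425 and 30513 with siCtrl, 23873, 22740 and 23256 with siQKI and 28801, 28165 and 27910 with siRBFOX2. It fell by 0.46 ± 0.04 with siQKI (adjusted p = 8.9e-07) and by 0.17 ± 0.04 with siRBFOX2 (adjusted p = 0.0061), and the siRBFOX2 libraries lay between the siQKI and siCtrl libraries. CENPE, the kinetochore kinesin, was at 26128, 28706 and 29330 with siCtrl, 23618, 25917 and 27126 with siQKI and 23920, 24421 and 23267 with siRBFOX2. CENPF, a large protein of the outer kinetochore, was at 63429, 60998 and 62761 with siCtrl, 55340, 60305 and 62438 with siQKI and 49175, 53935 and 47767 with siRBFOX2. Both fell with siRBFOX2, by 0.23 ± 0.05 (adjusted p = 0.0054) and 0.31 ± 0.05 (adjusted p = 0.00033), while siQKI and siCtrl libraries overlapped for both, with -0.14 ± 0.05 (adjusted p = 0.073) and -0.07 ± 0.05 (adjusted p = 0.31).

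Of the 3 passenger complex genes apart from AURKB, BIRC5 and CDCA8 fell with siQKI and all 3 fell with siRBFOX2. BIRC5 (survivin, chr17:78214243-78225635) was at 151866, 151719 and 148806 with siCtrl, 107792, 96329 and 99110 with siQKI and 128287, 131125 and 132170 with siRBFOX2. It fell by 0.58 ± 0.04 with siQKI (adjusted p = 6.4e-08), to 67.0% of the siCtrl mean, and by 0.21 ± 0.04 with siRBFOX2 (adjusted p = 0.0015). CDCA8 (borealin, chr1:37692481-37709719) was at 32682, 32013 and 34342 with siCtrl, 23071, 23877 and 23541 with siQKI and 28963, 26670 and 29045 with siRBFOX2, with falls of 0.49 ± 0.04 (adjusted p = 7e-07) and 0.23 ± 0.04 (adjusted p = 0.0014). For both genes the siQKI libraries were lowest, the siRBFOX2 libraries intermediate and the siCtrl libraries highest, with no overlap. INCENP, the scaffold of the complex, was at 25373, 23813 and 23660 with siCtrl, 24760, 25074 and 24654 with siQKI and 20163, 21226 and 21119 with siRBFOX2, and fell by 0.22 ± 0.04 with siRBFOX2 (adjusted p = 0.001) with 0.03 ± 0.04 for siQKI (adjusted p = 0.61).

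All 5 organisers of spindle microtubules fell with siRBFOX2, and 4 (all but NUSAP1) with siQKI. TPX2, the activator of Aurora A and the member with the highest normalized counts, was at 167434, 170961 and 179461 with siCtrl, 140643, 145065 and 144656 with siQKI and 155791, 156846 and 161639 with siRBFOX2. It fell by 0.27 ± 0.04 (adjusted p = 4.4e-05) and 0.13 ± 0.04 (adjusted p = 0.018). ASPM, which holds microtubule minus ends at the poles, was at 16992, 17135 and 17633 with siCtrl, 13883, 14609 and 16573 with siQKI and 13129, 14198 and 13430 with siRBFOX2, with falls of 0.20 ± 0.06 (adjusted p = 0.014) and 0.35 ± 0.06 (adjusted p = 0.00045). DLGAP5 and HMMR, which bundle spindle fibres, fell by 0.24 ± 0.04 and 0.16 ± 0.05 with siQKI and by 0.18 ± 0.04 and 0.23 ± 0.05 with siRBFOX2, and NUSAP1 by 0.24 ± 0.04 with siRBFOX2.

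Of the 9 mitotic kinesins, 5 fell with siQKI (2 without the mean-variance trend) and 6 with siRBFOX2. KIF11 (Eg5), which pushes the spindle poles apart (chr10:92593130-92655395), was at 19203, 19283 and 20456 with siCtrl, 18470, 19308 and 19598 with siQKI and 14878, 14020 and 15248 with siRBFOX2. It fell by 0.42 ± 0.05 with siRBFOX2 (adjusted p = 1.1e-05), to 74.9% of the siCtrl mean, and the siQKI libraries overlapped the controls at -0.04 ± 0.05 (adjusted p = 0.59). KIF20A, the carrier of the passenger complex in anaphase, was at 32213, 32779 and 31433 with siCtrl, 29442, 28939 and 28708 with siQKI and 31745, 30232 and 33183 with siRBFOX2. It fell by 0.15 ± 0.04 with siQKI (adjusted p = 0.012) and gave -0.02 ± 0.04 with siRBFOX2 (adjusted p = 0.78), with the limit that it overlaps CDC23, which fell in both. KIF20B, a relative that acts in cytokinesis, was at 33832, 34120 and 39238 with siCtrl, 27323, 30420 and 31687 with siQKI and 28740, 28847 and 29196 with siRBFOX2. KIF2C (MCAK), which removes tubulin at kinetochores, was at 43807, 47200 and 48386 with siCtrl, 36957, 38850 and 37436 with siQKI and 39496, 37765 and 40510 with siRBFOX2. KIF20B fell by 0.26 ± 0.06 and 0.30 ± 0.06, and KIF2C by 0.30 ± 0.04 and 0.24 ± 0.04, with adjusted p-values of 0.0033 or less. KIF14 and KIF15 fell in both comparisons by 0.20 to 0.27, KIF23 by 0.17 ± 0.04 with siRBFOX2 only, and KIF4A and KIF18A passed the test in neither comparison. KIF4A has a near-identical copy, KIF4B, whose mean of 269 is small beside the 31757 of KIF4A.

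The 4 genes of the central spindle and cytokinesis all fell with siRBFOX2, and PRC1 and ECT2 also with siQKI. ECT2, the exchange factor that activates RhoA at the cell equator (chr3:172750723-172821474), was at 76409, 78979 and 82925 with siCtrl, 57574, 63060 and 60013 with siQKI and 61753, 60045 and 61548 with siRBFOX2. It fell by 0.40 ± 0.04 (adjusted p = 3.3e-06) and 0.38 ± 0.04 (adjusted p = 1.1e-05), to 75.8% and 76.9% of the siCtrl mean. PRC1, the crosslinker of the midzone, was at 87927, 85677 and 88810 with siCtrl, 75118, 77049 and 72529 with siQKI and 72330, 74065 and 75278 with siRBFOX2, with falls of 0.22 ± 0.04 (adjusted p = 0.00019) and 0.24 ± 0.04 (adjusted p = 0.00015). ANLN (anillin), which organises the contractile ring, was at 149263, 141700 and 150623 with siCtrl, 140511, 149505 and 149597 with siQKI and 116303, 121822 and 124149 with siRBFOX2. It fell by 0.29 ± 0.04 with siRBFOX2 (adjusted p = 9.7e-05) and gave -0.01 ± 0.04 with siQKI (adjusted p = 0.93). RACGAP1 fell by 0.17 ± 0.04 with siRBFOX2.

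The last 3 members are general markers of cycling cells. FOXM1, the transcription factor of G2 and M phase genes (chr12:2857680-2877174), was at 20502, 19588 and 20347 with siCtrl, 13696, 13701 and 13299 with siQKI and 16528, 16294 and 16148 with siRBFOX2. It fell by 0.57 ± 0.04 with siQKI (adjusted p = 6.1e-08) and by 0.30 ± 0.04 with siRBFOX2 (adjusted p = 5.7e-05), without overlap of the 3 groups. FOXM1 lies over RHNO1, with a mean of 12136 against its own 16678, and reads where they overlap can be told apart only by strand. MKI67 (Ki-67), the proliferation marker that coats mitotic chromosomes, was at 108237, 103296 and 106017 with siCtrl, 96639, 102028 and 100630 with siQKI and 84723, 89411 and 83734 with siRBFOX2. TOP2A, which untangles sister chromatids, was at 64186, 66340 and 67865 with siCtrl, 56889, 60625 and 64089 with siQKI and 59420, 58589 and 59685 with siRBFOX2. MKI67 fell by 0.30 ± 0.04 with siRBFOX2 (adjusted p = 3.9e-05) with -0.09 ± 0.04 for siQKI (adjusted p = 0.11), and TOP2A fell by 0.13 ± 0.04 (adjusted p = 0.032) and 0.16 ± 0.04 (adjusted p = 0.013).

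**Figure D3:**
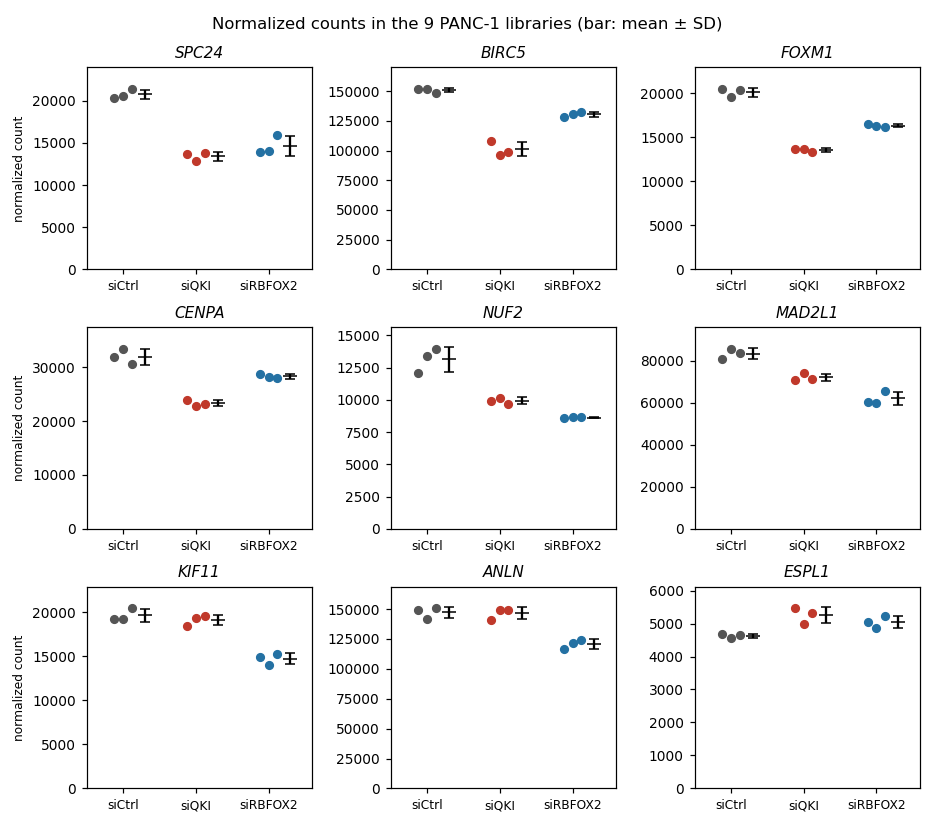
Normalized counts (axes from 0) of 9 members in the 9 PANC-1 libraries, with the mean ± SD of 3 libraries beside the points. BIRC5, FOXM1 and CENPA are lowest with siQKI, MAD2L1, KIF11 and ANLN lowest with siRBFOX2, and ESPL1 is the member that rose with siQKI.

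Whether the knockdowns differed was tested directly, as siQKI against siRBFOX2 in the same fit. Of the 50 members, 7 were lower with siQKI (11.6% of all genes, 22.7% of the abundant genes) and 14 were lower with siRBFOX2, that is higher with siQKI (9.93% of all genes, 18.1% of the abundant genes). The share of members lower with siQKI was near that of all genes and below that of abundant genes, while 14 of 50 lower with siRBFOX2 was above both. The median difference was 0.06, beside 0.01 over all genes. Under upper-quartile rescaling the 7 and 14 became 5 and 20, and without a mean-variance trend 4 and 7.

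The members lower with siQKI were led by BIRC5 at -0.37 (95% confidence interval -0.46 to -0.28, adjusted p = 1.2e-05). CENPA differed by -0.28 (95% confidence interval -0.37 to -0.19, adjusted p = 0.00018), FOXM1 by -0.27 (95% confidence interval -0.35 to -0.18, adjusted p = 0.0002) and CDCA8 by -0.26 (95% confidence interval -0.36 to -0.17, adjusted p = 0.00048). TPX2, KIF20A and CDC20 followed at -0.14 to -0.12, with adjusted p-values of 0.012 to 0.045. The members lower with siRBFOX2 were led by KIF11 at 0.38 (95% confidence interval 0.28 to 0.48, adjusted p = 3.1e-05), then ANLN at 0.28 (95% confidence interval 0.19 to 0.37, adjusted p = 0.00014), NEK2 at 0.27 (95% confidence interval 0.16 to 0.38, adjusted p = 0.0016) and INCENP at 0.25 (95% confidence interval 0.16 to 0.34, adjusted p = 0.00039). CDC25B, CENPF, MKI67, MAD2L1, NUF2, NUSAP1, PTTG1, CDK1, BUB1 and KIF23 made up the rest, at 0.13 to 0.24. Within the passenger complex, AURKB did not pass the test (-0.03, adjusted p = 0.75). BIRC5 and CDCA8 differed in one direction and INCENP in the other. The 11 members that kept this call under all alternatives tried, apart from stricter thresholds, were CENPA, BIRC5, CDCA8 and FOXM1 on the siQKI side and CDC25B, NEK2, MAD2L1, INCENP, KIF11, ANLN and MKI67 on the siRBFOX2 side.

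For several members named in both comparisons no difference passed the test. AURKB differed by -0.03 (95% confidence interval -0.13 to 0.07) between the knockdowns (adjusted p = 0.75), ECT2 by -0.02 (95% confidence interval -0.11 to 0.07, adjusted p = 0.78) and PRC1 by 0.02 (95% confidence interval -0.06 to 0.10, adjusted p = 0.78). SPC24 differed by -0.12 (95% confidence interval -0.24 to -0.01), which did not pass the adjustment (adjusted p = 0.13).

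**Figure D4:**
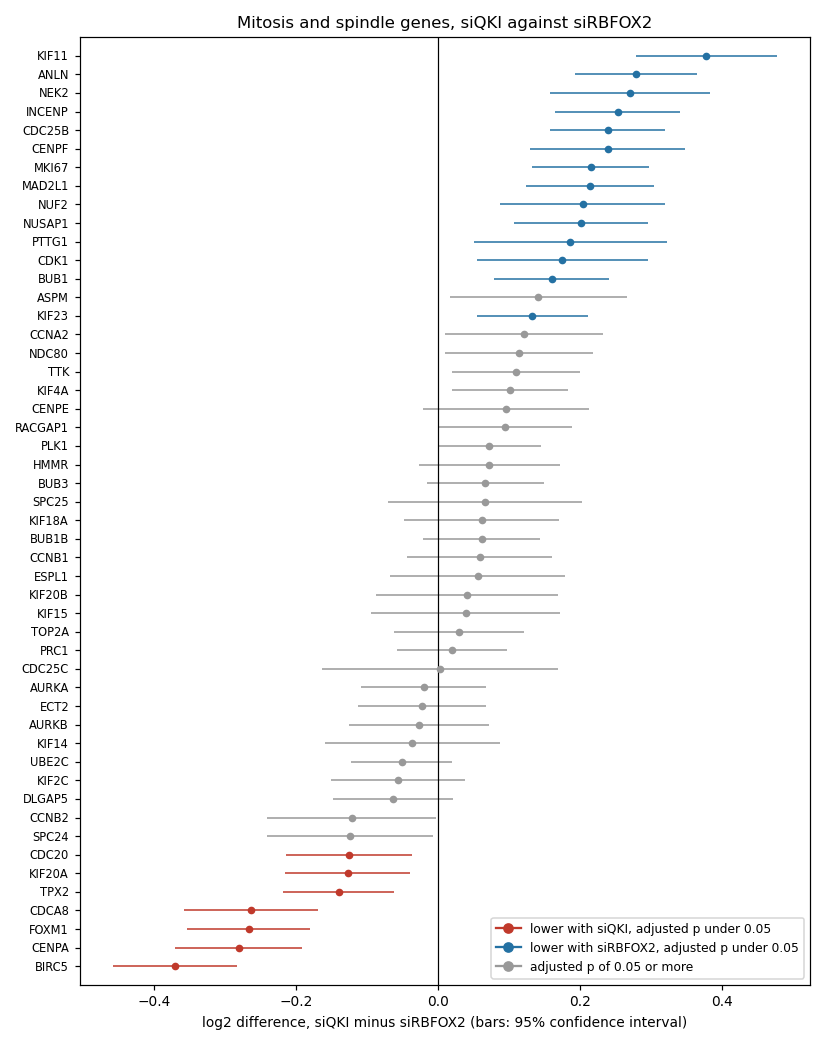
Log2 difference between siQKI and siRBFOX2 libraries for the 50 members, ordered by value, with 95% confidence intervals. BIRC5 (-0.37) and KIF11 (0.38) mark the ends, 7 members are lower with siQKI (red), 14 are lower with siRBFOX2 (blue), and 29 did not pass the test (grey).

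Transcripts of the 7 members lower with siQKI ran from 1452 bases (CENPA) to 3605 (TPX2), and those of the 14 lower with siRBFOX2 from 1070 (PTTG1) to 12678 (MKI67). Across the 50 members, Spearman's rho of the log2 fold change with transcript length (GENCODE v29, 1 transcript a gene) was 0.36 for siQKI, 0.05 for siRBFOX2 and 0.26 for their difference, against 0.01, 0.03 and -0.01 over 16512 genes. The points of each correlation share their libraries. With a trend on length and GC content removed from each library, an alternative added after the data were seen, 35 members fell with siQKI and 48 with siRBFOX2, and 5 (CDC20, CENPA, BIRC5, CDCA8 and FOXM1) were lower with siQKI than with siRBFOX2 against 21 the other way. The same step lowered genes in general, with 4977 (siQKI) and 4688 (siRBFOX2) of 16512 genes called lower in place of 4052 and 3329 with the trend kept, and all-gene medians of -0.06 and -0.07. TPX2 and KIF20A lost their call there.

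Other genes of mitosis, chosen by their known roles, were set beside the members. The lists were drawn up with earlier results of these data known, so they are a description and not an independent check. Of 45 further mitosis genes, 26 fell and 4 rose with siQKI (median -0.15), and 37 fell and none rose with siRBFOX2 (median -0.24). Beside them, 18.1% of all genes and 40.4% of the abundant genes fell with siQKI, and 14.5% and 34.3% with siRBFOX2. Under upper-quartile rescaling 15 of the 45 fell with siQKI, without the mean-variance trend 16, and without siCtrl replicate 3 17. HJURP, the chaperone that loads CENPA onto centromeres, was at 25882, 24751 and 25754 with siCtrl, 14159, 13799 and 13865 with siQKI and 18520, 18215 and 19776 with siRBFOX2. It fell by 0.87 ± 0.04 with siQKI (adjusted p = 1.7e-09) and by 0.44 ± 0.04 with siRBFOX2 (adjusted p = 3.5e-06), and the difference between the knockdowns was -0.43 (95% confidence interval -0.53 to -0.34, adjusted p = 4.5e-06). BORA, which activates PLK1 with Aurora A, fell by 0.53 ± 0.07 and 0.27 ± 0.07. KNL1, the kinetochore scaffold that recruits BUB1, was at 22719, 21955 and 23009 with siCtrl, 20310, 23137 and 22840 with siQKI and 15398, 17086 and 14664 with siRBFOX2. It fell by 0.52 ± 0.06 with siRBFOX2 (adjusted p = 1.3e-05) and gave -0.03 ± 0.06 with siQKI (adjusted p = 0.74).

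Of 15 APC/C genes, 5 fell and 1 rose with siQKI, and 8 fell and 1 rose with siRBFOX2. With siQKI, 18.1% of all genes and 40.4% of the abundant genes fell, so the APC/C share lay below that of abundant genes. With siRBFOX2, 14.5% of all genes and 34.3% of the abundant genes fell. CDC23, an APC/C subunit, was at 20803, 21552 and 22246 with siCtrl, 12991, 13170 and 13860 with siQKI and 17248, 16595 and 17388 with siRBFOX2, with falls of 0.69 ± 0.04 (adjusted p = 2.3e-08) and 0.33 ± 0.04 (adjusted p = 5.6e-05). ANAPC10, which helps to bind substrates, fell by 0.46 ± 0.07 and 0.46 ± 0.07, whereas CDC16, another subunit, rose by 0.36 ± 0.05 and 0.38 ± 0.05. Of 20 condensin and cohesin genes, 11 fell and 2 rose with siQKI and 17 fell and 1 rose with siRBFOX2. Under upper-quartile rescaling 7 of them fell with siQKI, and on rescaling to the same total 7 fell with siQKI and 11 with siRBFOX2. RAD21, the cohesin subunit that separase cuts, was at 52105, 54698 and 53092 with siCtrl, 78728, 80639 and 80442 with siQKI and 77573, 73392 and 78990 with siRBFOX2. It rose by 0.58 ± 0.04 with siQKI (adjusted p = 2.5e-08) and by 0.52 ± 0.04 with siRBFOX2 (adjusted p = 1.8e-07). SGO1, the protector of centromeric cohesin, fell by 0.69 ± 0.08 and 0.32 ± 0.08, and CDCA5 (sororin), which stabilises cohesin, by 0.38 ± 0.05 and 0.69 ± 0.05.

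Of 21 genes of the DREAM and MuvB-MYB complexes, E2F and NF-Y, 8 fell and 2 rose with siQKI (median -0.04), and 10 fell and 4 rose with siRBFOX2 (median -0.16). The share that fell with siQKI was near the 40.4% of abundant genes, where 18.1% of all genes fell. With siRBFOX2, 34.3% of the abundant genes and 14.5% of all genes fell. Upper-quartile rescaling gave 5 lower and 5 higher with siQKI, and the 4 that rose with siRBFOX2 became 1 without siCtrl replicate 2. RBL1 (p107), a pocket protein of DREAM, was at 6910, 6914 and 7485 with siCtrl, 2980, 3208 and 3037 with siQKI and 6311, 6368 and 6344 with siRBFOX2. It fell by 1.21 ± 0.06 with siQKI (adjusted p = 1e-09), to 43.3% of the siCtrl mean, and by 0.16 ± 0.06 with siRBFOX2 (adjusted p = 0.048). E2F4, the E2F of DREAM, fell by 0.50 ± 0.04 and 0.26 ± 0.04. LIN9, a MuvB subunit, fell by 0.49 ± 0.06 with siRBFOX2 (adjusted p = 2.9e-05), with -0.16 ± 0.06 for siQKI (adjusted p = 0.063).

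HPAF-II and PANC-1 values were scaled in separate tables, so no test was run between the lines, and both are given per 1000000 normalized counts of their library. The members together took 6816, 6732 and 5510 per 1000000 in the HPAF-II libraries and 6836 to 7044 in the PANC-1 siCtrl libraries. The median log2 ratio of HPAF-II to PANC-1 was 0.04 for the members (0.08 without HPAF-II replicate 3) and 0.02 over the 24673 genes compared. At least 2-fold differences without overlap of the libraries were found for 5 members, all lower in HPAF-II, where 22% of all genes were lower and 20.9% higher by the same rule.

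CENPA was at 26.9, 22.4 and 42.7 in HPAF-II against 94.1, 96.0 and 88.4 in PANC-1, a log2 ratio of -1.65 (-1.92 without HPAF-II replicate 3). BIRC5 was at 139, 139 and 259 in HPAF-II against 448, 436 and 431 in PANC-1, a ratio of -1.36 (-1.66). CDC20 was at 123, 108 and 172 in HPAF-II against 261, 264 and 271 in PANC-1, a ratio of -1.01 (-1.21). These 3 genes were lower in every HPAF-II library, and in each HPAF-II replicate 3 was closest to PANC-1. CDCA8 (-1.06) and KIF4A (-1.07) were the other members past 2-fold, with ratios of -1.08 and -0.83 without replicate 3, so KIF4A depends on that library. CCNB1 was also lower in all HPAF-II libraries, at -0.95, and passed 2-fold without replicate 3 (-1.10). BUB1 (-0.88), AURKB (-0.85) and KIF2C (-0.81) were lower in all HPAF-II libraries too, with -0.76, -0.91 and -0.85 without replicate 3.

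At the other end, HMMR was at 204, 219.8 and 109 in HPAF-II against 93.6, 89.6 and 91.3 in PANC-1, a ratio of 0.89 (1.21 without replicate 3). CDK1 was at 99.5, 119.9 and 84.2 in HPAF-II against 53.7, 55.4 and 54.5 in PANC-1 (a ratio of 0.88, and 2.01-fold without replicate 3), and NEK2 at 94.7, 93.0 and 48.9 in HPAF-II against 43.0, 42.1 and 45.0 in PANC-1 (a ratio of 0.80, and 1.11 without replicate 3). All 3 were higher in every HPAF-II library and passed 2-fold only without replicate 3. Without it, 5 members were lower (CENPA, BIRC5, CDC20, CCNB1 and CDCA8) and 3 higher. The share of all genes past 2-fold without replicate 3 was not computed, so these counts cannot be read against one. FOXM1 was at 90.7, 85.2 and 74.7 in HPAF-II against 60.5, 56.3 and 58.9 in PANC-1 (a ratio of 0.51, and 0.59 without replicate 3), higher in every HPAF-II library. MKI67 was at 572, 540.0 and 299 in HPAF-II against 319, 297 and 307 in PANC-1, a ratio of 0.55 (0.85 without replicate 3). Its replicate 3 value fell within the PANC-1 range while the other HPAF-II libraries lay above it. HPAF-II replicate 3 was the lowest of the 3 libraries for 34 members and the highest for 15, at a median of 78.6% of the mean of the other two. Its log2 ratio to them had a Spearman's rho of -0.49 with transcript length over the 50 members and of -0.27 over 17575 genes. The part of transcript length in these values was not tested.

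**Figure D5:**
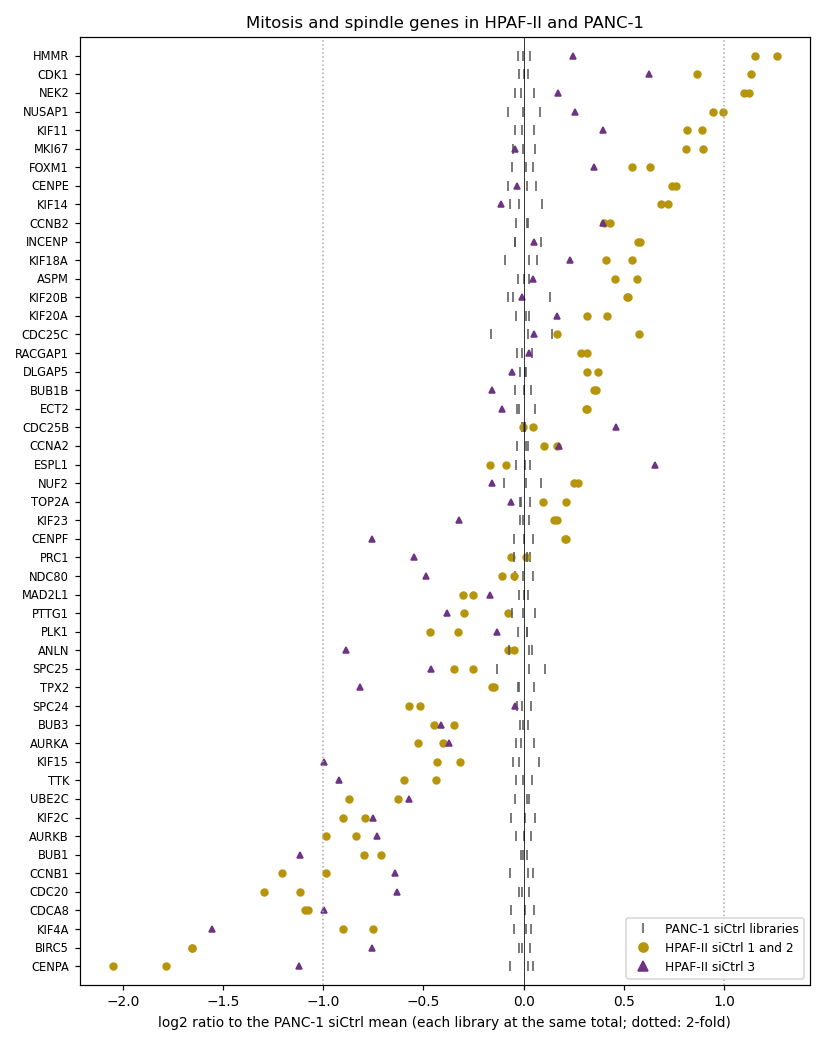
Log2 ratio of each library to the PANC-1 siCtrl mean for the 50 members, after bringing every library to the same total, with PANC-1 siCtrl libraries as grey bars, HPAF-II replicates 1 and 2 as yellow circles and HPAF-II replicate 3 as purple triangles. CENPA, BIRC5, KIF4A, CDCA8 and CDC20 lie left of the 2-fold line in the mean, HMMR, CDK1 and NEK2 lie farthest right, and replicate 3 departs from the other HPAF-II libraries for many members.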

How the data were processed

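Polyadenylated RNA of 12 libraries was sequenced by the authors as paired reads on an Illumina instrument. Per the submitters' processing notes, the authors aligned reads with STAR 2.7.5a to hg38, and also used FastQC, Picard, SAMtools and DESeq2. The signal deposited by the authors is the gene count of each library divided by a DESeq2 size factor, and each cell line was scaled in a table of its own. Undoing that division gave whole units for all values (tolerance 0.01), but 82.1% to 84.8% of values of 1 to 30 units were multiples of 3. Units are therefore not reads and no count model was used. Strand handling is not given in the sources used here.

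Fold changes came from limma 3.58.1 (R 4.3.3) on log2(signal + 1), fitted jointly over the 9 PANC-1 libraries. It covered 22544 genes whose mean signal reached 10, with a mean-variance trend, Benjamini-Hochberg adjustment and a threshold of 0.05. The procedure was run on simulated counts with known changes and the same dispersion for every gene. These lack the multiples of 3 of the real units, so the run checked the code and not the error rates in these data. The 2 lines were compared without a test, each library brought to a total of 1000000 and 0.01 added before logs, calling 2-fold differences without overlap. Members and lists were chosen with earlier results of these data known. Named genes were those that mark each role, the 8 called members with the largest changes per PANC-1 comparison, and up to 3 called genes per other list. Alternatives covered pseudocount, filter, rescaling, the groups fitted, replicate block, trend, threshold, each library left out and, added later, length and GC content.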

Additional observations from a re-analysis of the deposited data

How the results depend on the processing

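The 3 libraries a group set the precision, since the number of reads is not known. Counts of called members stayed within 1.5 times of 31 (siQKI), 45 (siRBFOX2) and 21 (siQKI against siRBFOX2) except where named here. Requiring a 1.5-fold change left 1, 1 and 0 members, and dropping the mean-variance trend left 11 for siQKI against siRBFOX2. Leaving out 1 library gave 24 to 32, 37 to 45 and 15 to 21 members, with medians of -0.19 to -0.16, -0.26 to -0.23 and 0.05 to 0.09. Upper-quartile rescaling moved the medians to -0.11 and -0.21, rescaling to the same total to -0.11 and -0.18, and removing the length and GC trend moved that of siRBFOX2 to -0.31. Rescaling to the same total gave 23 lower and 2 higher with siQKI, 35 lower and 1 higher with siRBFOX2, and over all genes 4151 higher and 3049 lower (siQKI) and 3454 higher and 2290 lower (siRBFOX2). For siQKI against siRBFOX2, upper-quartile rescaling gave 2764 higher and 2230 lower genes in place of 2238 and 2606. The cause was not tested for any of these shifts.

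Replicate numbers did not pair the libraries: deviations from the group means correlated at -0.0325 to 0.0235 for the same number and at -0.0333 to 0.0384 for other numbers. A replicate block gave 33, 45 and 19 members called, with the same medians.

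Between the lines, a 1.5-fold limit gave 16 members (11 lower and 5 higher), and the signal without rescaling gave 9 with a median of -0.24. Leaving out 1 library gave 4 to 8 members and medians of -0.04 to 0.08. The share of all genes called was not computed at these settings, so these counts are not a result about the members. At the 2-fold limit with all libraries, 22% of all genes were lower in HPAF-II and 20.9% higher. For the targets, leaving out 1 library gave -2.40 to -2.29 for QKI with siQKI and -3.00 to -2.76 for RBFOX2 with siRBFOX2. RBFOX2 with siQKI missed the threshold under both rescalings (-0.23 each), without the trend (-0.29) and on leaving out some libraries (-0.30 to -0.28). QKI with siRBFOX2 passed it under upper-quartile (0.17) and same-total rescaling (0.19), with 0.11 to 0.17 on leaving out 1 library. Of 2040 counts for the 17 lists and roles, 1868 stayed within 1.5 times and 148 of the other 172 moved by at most 2 genes. The largest move, of 11 genes, was that of the other mitosis genes lower with siQKI.

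Of 3000 values of single members, 2768 kept their direction and side of the threshold, 151 lost a call, 36 gained one and 45, of 20 members, changed sign. None of the 45 was called as reported, and 1 was called in the alternative. The sign changes follow by comparison. With the length and GC trend removed, CDC25B at -0.094, INCENP at -0.087 and KIF4A at -0.025 changed sign for siQKI against siCtrl. Under upper-quartile rescaling, NUSAP1 at 0.027, KIF11 at 0.024, KIF23 at 0.024 and ANLN at 0.056 changed sign for siQKI against siCtrl. Under rescaling to the same total, NUSAP1 at 0.025, KIF11 at 0.022, KIF23 at 0.022 and ANLN at 0.054 changed sign for siQKI against siCtrl. On leaving out 1 library, the ranges for siQKI against siCtrl were CDC25B -0.0018 to 0.028, NEK2 -0.024 to 0.034, KIF4A -0.0015 to 0.025, KIF18A -0.0047 to 0.070 and ANLN -0.034 to 0.023. Under upper-quartile rescaling, KIF20A at 0.012 and KIF18A at 0.0041 changed sign for siRBFOX2 against siCtrl. Under rescaling to the same total, KIF20A at 0.037 and KIF18A at 0.029 changed sign for siRBFOX2 against siCtrl. On leaving out 1 library, the ranges for siRBFOX2 against siCtrl were KIF20A -0.053 to 0.014 and KIF18A -0.067 to 0.0078. Under upper-quartile rescaling, AURKA at 0.010, AURKB at 0.0034 and ECT2 at 0.0082 changed sign for siQKI against siRBFOX2. With the length and GC trend removed, AURKA at 0.062, KIF2C at 0.024 and ECT2 at 0.0080 changed sign for siQKI against siRBFOX2. On leaving out 1 library, the ranges for siQKI against siRBFOX2 were CDC25C -0.026 to 0.046, AURKA -0.042 to 0.0060, KIF20B -0.0048 to 0.10, KIF14 -0.071 to 0.022, KIF15 -0.0068 to 0.098, PRC1 -0.0013 to 0.042, ECT2 -0.056 to 0.0096 and TOP2A -0.012 to 0.074.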

Other observations

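Other genes of the cell cycle, also listed with earlier results of these data known, were read in the same way. Over all genes 18.1% fell with siQKI and 14.5% with siRBFOX2, and among the abundant genes 40.4% and 34.3%. Of 11 G1 cyclins and CDKs, 7 fell and none rose with siQKI, and 8 fell (5 without siCtrl replicate 3) and 2 rose with siRBFOX2 (limma, Benjamini-Hochberg adjusted p under 0.05). CCND1, the D-type cyclin that starts G1 progression, was at 53426, 53611 and 55744 with siCtrl, 37481, 37788 and 36018 with siQKI and 27413, 25662 and 26132 with siRBFOX2 normalized counts. It fell by 0.55 ± 0.04 (SE, log2 scale) with siQKI (adjusted p = 7.6e-08) and by 1.04 ± 0.04 with siRBFOX2 (adjusted p = 1.9e-10), a difference between the knockdowns of 0.49 (95% confidence interval 0.41 to 0.58, adjusted p = 5.7e-07). CDK6, a partner of cyclin D, was at 18462, 16653 and 18881 with siCtrl, 10288, 10849 and 12424 with siQKI and 7646, 8392 and 7854 with siRBFOX2, with falls of 0.69 ± 0.07 (adjusted p = 1.9e-06) and 1.18 ± 0.07 (adjusted p = 1.9e-08). CCND2 was low, at 135, 157 and 130 with siCtrl, 137, 146 and 207 with siQKI and 484, 278 and 468 with siRBFOX2, and rose to 292% of the siCtrl mean with siRBFOX2 (adjusted p = 0.00092), with 0.19 ± 0.28 for siQKI (adjusted p = 0.66).

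Of 21 CDK inhibitors and p53 response genes, 19 passed the filter on low values, of which 4 fell and 7 rose with siQKI, and 3 fell and 7 rose with siRBFOX2. Over all genes 14.9% rose with siQKI and 12% with siRBFOX2, and among the abundant genes 18.2% and 15.1%. CCNG1 (cyclin G1), a p53 target, was at 9200, 9985 and 9308 with siCtrl, 28266, 26567 and 26622 with siQKI and 23186, 21840 and 21915 with siRBFOX2. It rose by 1.52 ± 0.05 with siQKI (adjusted p = 1.1e-11) and by 1.23 ± 0.05 with siRBFOX2 (adjusted p = 1.9e-10). BTG2, an antiproliferative p53 target, was at 435, 499 and 375 with siCtrl, 712, 708 and 740 with siQKI and 642, 577 and 678 with siRBFOX2 and rose by 0.73 ± 0.15 and 0.54 ± 0.15, whereas PLK3, a stress kinase, fell by 0.74 ± 0.08 and 0.89 ± 0.08. CDKN2A and CDKN2B, the INK4 inhibitors of CDK4 and CDK6, were listed at 0 in all 9 PANC-1 libraries and at 29993, 29287 and 43329 and 22824, 36271 and 26347 in the HPAF-II libraries.

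Of 30 DNA replication genes, 19 fell and 2 rose with siQKI (median -0.18), and 23 fell and 1 rose with siRBFOX2 (median -0.31). Both shares that fell were above those of the abundant genes, 40.4% with siQKI and 34.3% with siRBFOX2. CDC45, part of the replicative helicase, was at 12378, 12673 and 13163 with siCtrl, 8394, 8306 and 8211 with siQKI and 10268, 9694 and 10179 with siRBFOX2, with falls of 0.62 ± 0.05 (adjusted p = 1.1e-07) and 0.34 ± 0.05 (adjusted p = 6.6e-05). GINS1, another part of this helicase, fell by 0.32 ± 0.05 and 0.46 ± 0.05, and GMNN (geminin), which restrains licensing, by 0.28 ± 0.04 and 0.45 ± 0.04.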
